A study of Mus musculus with 8 samples.

Results

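The genes described here are 4 tropomyosin genes and 6 genes for proteins that bind or anchor actin filaments, 10 genes of the 47729 in the deposited table. They are Tpm1, Tpm2, Tpm3 and Tpm4, the alpha-actinin genes Actn1 and Actn4, the non-muscle myosin heavy chain gene Myh9, Ahnak, the talin gene Tln1 and the vinculin gene Vcl, found by symbol. The set was put together because Tpm4 and Ahnak were higher after knockdown of Fubp1. All values of the 10 genes in that comparison are therefore given as a description with no p-value, and they support nothing further.

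Leukaemic cells of 8 C57BL/6 mice were compared, 4 with an shRNA against Fubp1 (the knockdown group) and 4 with a scrambled shRNA. Donor marrow of mice given 5-fluorouracil was transduced in both groups with a retrovirus for BCR-ABL1 and red fluorescent protein and with a lentivirus for the shRNA and Venus, and was given to recipients irradiated with 900 cGy. The labels call the disease a myeloproliferative neoplasm like chronic myeloid leukaemia. The sorted marrow cells lacked lineage markers and were positive for both reporters, so the controls also carried BCR-ABL1 and a lentivirus. Each library came from 1 mouse. FUBP1 binds single-stranded DNA upstream of Myc and also RNA. The sources used here give neither the age and sex of the mice nor the promoter that drives the shRNA. Values of 4 libraries are listed in the order of replicates 1 to 4.

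Tropomyosins are coiled coils that lie end to end along actin filaments and set which myosins and severing proteins reach them. Alpha-actinins crosslink filaments, non-muscle myosin II pulls on them, and talin and vinculin tie them to integrins. AHNAK is a very large scaffold protein under the plasma membrane, which binds the S100A10 and annexin A2 complex. In marrow this machinery is best known from platelets, megakaryocytes and moving myeloid cells, and mutations in human MYH9 and ACTN1 are known causes of large platelets with low platelet counts.

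Total counts ran from 22465303 to 44761356 per library. Fubp1 measured 284 to 396 CPM (a gene's counts per 1000000 counts of its library, after TMM scaling) in the scrambled and 220 to 281 CPM in the knockdown libraries, without overlap (exact two-sided permutation p = 0.0286, the smallest that 4 against 4 allows), but it missed the threshold over all genes (adjusted p = 0.0604 by edgeR's quasi-likelihood test). It was called lower with DESeq2 (adjusted p = 0.0145) and by edgeR with no low count filter (adjusted p = 0.0365). On the first principal component of all tested genes, which held 61.1% of the variance, knockdown replicate 3 lay at -29.0, among the scrambled libraries at -57.3 to -13.7, and the other knockdown libraries at 34.1 to 81.2. Summed early granulocyte markers (Mpo, Elane, Prtn3, Ctsg and 4 others) measured 35.9 to 333 CPM in the scrambled mice and 1973, 950, 86.7 and 3609 CPM in the knockdown mice. Of the 7 that passed the filter edgeR and limma-voom called 0, although all 7 were higher at an unadjusted p under 0.05, and DESeq2, run without that filter, called all 8 listed markers higher. Fcnb, the marker that did not pass, was under 1 CPM in every library. Erythroid markers were abundant in all libraries, at 8938 to 9990 and 7040 to 11239 CPM. Single erythroid markers moved both ways. Of 12 tested, edgeR called 3 higher and 4 lower (25.0% and 33.3%), beside 8.02% and 7.29% of all tested genes. Knockdown replicate 1 also held 741 CPM of stroma and smooth muscle markers, against 20.2 to 58.2 CPM in the other 7 libraries. Less RNA per cell and fewer cells of a type cannot be told apart in bulk libraries.

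Of the 10 genes, 9 passed the filter on low counts, and 5 of these 9 were higher at an adjusted p under 0.05: Tpm3, Tpm4, Myh9, Ahnak and Tln1. Among all 13462 tested genes 8.02% were called higher; since Tpm4 and Ahnak chose the set, the 5 are not read against that share. None of the 9 was called lower by edgeR, DESeq2 or limma-voom, and 0 were lower at an unadjusted p under 0.05. Over all tested genes edgeR called 7.29% lower, and 2086 of 13462 were lower at an unadjusted p under 0.05. With only 9 genes, the lack of lower calls is not read as a result. In the 5 genes called higher every knockdown library lay above every scrambled one, which held for 9.54% of all tested genes. The median log2 fold change of the 9 was 0.50, beside 0.00 over all tested genes. As the set was chosen from this contrast and the 5 were already called, neither value is read against all tested genes. The number called higher was 2 without scrambled replicates 1, 2 or 3 and 3 without knockdown replicate 1. Without knockdown replicate 3, which lay among the scrambled libraries, 6 were called higher and 1 lower, and the log2 fold changes of Tpm4 and Ahnak were 3.31 and 3.25. Calls over all genes shifted as well, from 2062 with all libraries to 748, 526 and 657 without scrambled replicates 1, 2 and 3. They were 967 without knockdown replicate 1 and 3425 without knockdown replicate 3. The plot of expression by library shows all 10 genes.

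**Figure D1:**
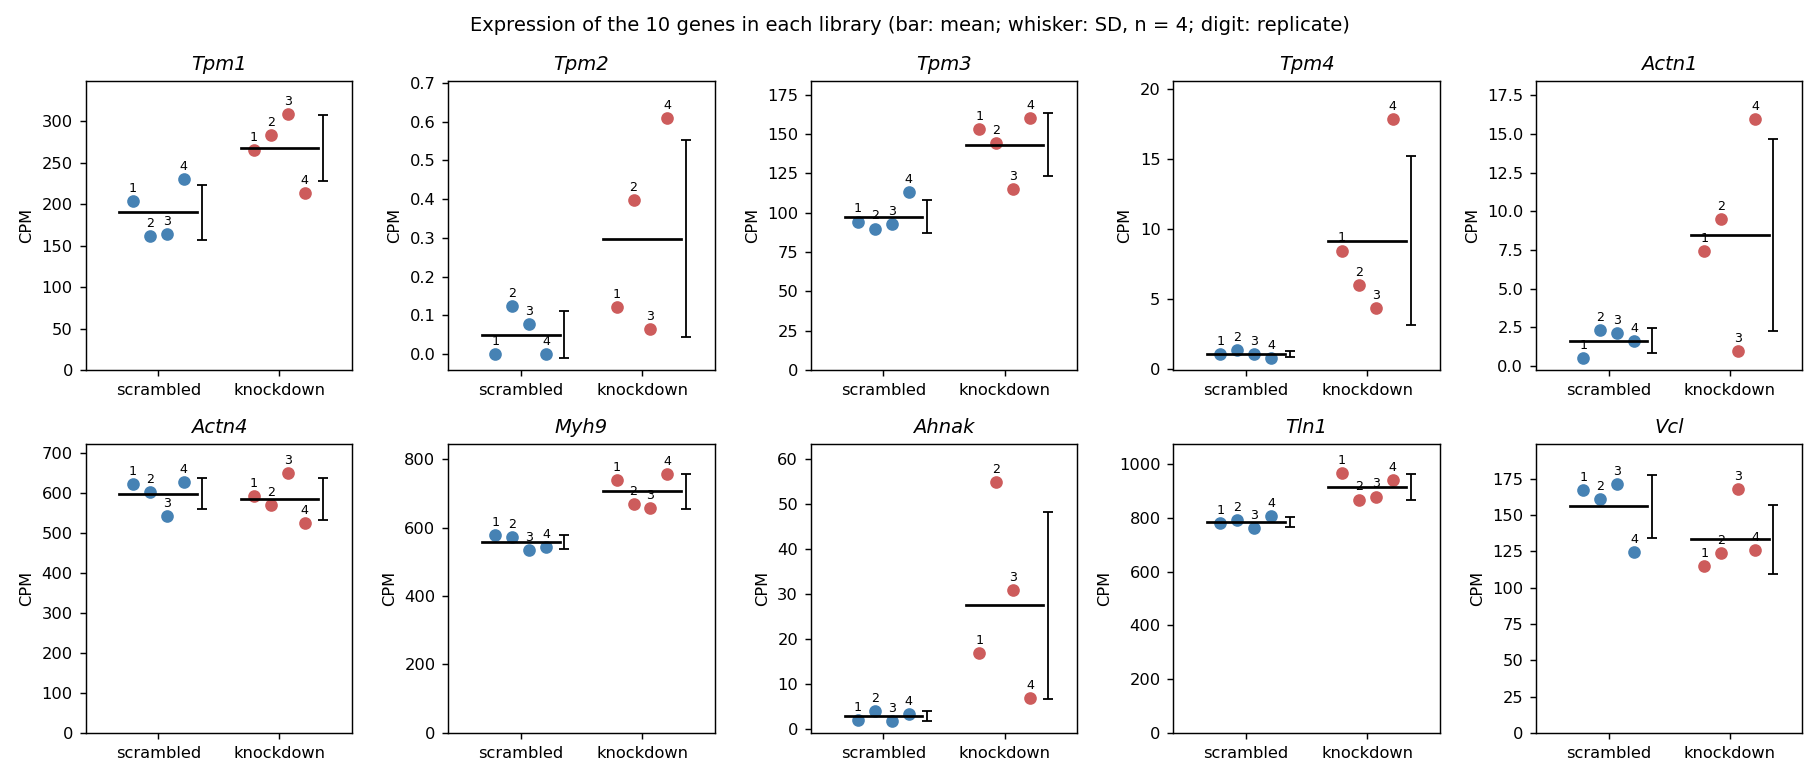
Expression (CPM, linear axis) of the 10 genes in 4 scrambled and 4 knockdown libraries, each point 1 mouse with its replicate number, the bar the mean and the whisker the SD. For Tpm4 and Ahnak each knockdown point lies above each scrambled one, with replicate 4 highest for Tpm4 (17.8 CPM) and lowest for Ahnak (6.83 CPM).

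Among the 3 tested tropomyosin genes Tpm4 had the largest fold change and the lowest level. Tpm4 (ENSMUSG00000031799, chromosome 8, 72134975 to 72153142, plus strand, in GENCODE M21 on GRCm38) had 38, 44, 42 and 17 counts in the scrambled libraries, or 1.05, 1.35, 1.09 and 0.764 CPM. In the knockdown libraries it measured 8.46, 5.98, 4.38 and 17.8 CPM, from 210, 181, 138 and 820 counts. The groups did not overlap, knockdown replicate 4 stood highest, and replicate 3, the lowest, was still 4.11 times the scrambled mean. The log2 fold change was 3.10 (SE 0.45), and the authors' deposited table gives a smaller one of 2.27 (SE 0.31). Tpm4 was called higher with each library left out, at log2 fold changes of 2.54 to 3.31.

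Tpm1 and Tpm3 were the main tropomyosin genes of these cells. Tpm3, which encodes short tropomyosins found in most cell types and a long form of slow muscle, measured 94.4, 90.0, 92.6 and 113 CPM in the scrambled mice and 153, 144, 115 and 160 CPM in the knockdown mice. Its groups stood apart by little, since knockdown replicate 3 was only just above scrambled replicate 4. The log2 fold change was 0.56 (SE 0.11), and the call was lost when scrambled replicate 1, 2 or 3 or knockdown replicate 1 was left out (0.50 to 0.64 over all 8 omissions). Tpm1, the gene of the striated and smooth muscle forms and of several cytoplasmic ones, measured 204, 162, 164 and 231 CPM in the scrambled and 265, 283, 309 and 214 CPM in the knockdown libraries. Its groups overlapped, because knockdown replicate 4 was below scrambled replicate 4. The log2 fold change of 0.50 (SE 0.14) was not called with all libraries. It was called without scrambled replicate 4 (0.58) or knockdown replicate 4 (0.59), with RLE size factors (0.50), with the filter at 1 CPM (0.51) and with DESeq2 (0.49).

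Tpm2, known from muscle and fibroblasts, was close to absent. It had 0, 4, 3 and 0 counts in the scrambled and 3, 12, 2 and 28 counts in the knockdown libraries, at most 0.609 CPM, and did not pass the low count filter. At the depth of these libraries no difference is read from it. Of 12 stroma and smooth muscle markers 7 were under 1 CPM in every library, among them Myh11, Des and Cspg4. The others were not, and the sum of the list reached 741 CPM in knockdown replicate 1.

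Summed over the 4 genes, tropomyosin reads came to 289 ± 42.4 CPM in the scrambled and 421 ± 18.8 CPM in the knockdown libraries (SD, n = 4 per group), without overlap. Tpm4 made up 0.383 ± 0.131% of these reads in scrambled and 2.23 ± 1.59% in knockdown libraries, with a highest share of 4.54%. Per kilobase of exon, as a rough allowance for gene length, its share was 1.09 ± 0.370% and 6.06 ± 4.09%. The length is that of all annotated exons of a gene merged, 6.485 kb for Tpm1, 6.085 kb for Tpm3 and 2.203 kb for Tpm4. It can exceed the length of the transcripts present, which were not measured, so shares per kilobase are approximate. Tpm1 held 63.8 ± 2.39% and 59.7 ± 8.61% per kilobase, and Tpm3 35.1 ± 2.08% and 34.1 ± 4.82% (SD, n = 4 per group). So the tropomyosin pool stayed mostly Tpm1 and Tpm3 in each library, with Tpm4 at up to 11.97% per kilobase.

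Tropomyosin genes have copies elsewhere in the genome, so their counts depend on how shared reads were treated. Of all 50-base stretches of Tpm3 transcripts 23.2% also occur in transcripts of other genes, mostly the copy Tpm3-rs7, and 11.7% of those of Tpm4, mostly Gm7809. For Tpm1, Tpm2, Ahnak, Tln1 and Vcl the share was 0%, and for Actn1, Actn4 and Myh9 it was at most 0.680%. Tpm3-rs7 measured 0.597 to 1.32 CPM in the scrambled and 1.13 to 1.68 CPM in the knockdown libraries. Gm7809 had at most 5 counts in any library.

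Sequences before a RefSeq start of Tpm4 and Ahnak, the pair with the largest fold changes, are shown beside that of Vcl, which was not called. Each line is the 250 bases before a transcription start in RefSeq (GRCm38.p6), 5′ to 3′ in the gene's direction, with capitals marking matches to the motifs named next: Tpm4 chr8:72135038-72135287, Ahnak chr19:8989034-8989283 and Vcl chr14:20929148-20929397, all on the plus strand.
Tpm4: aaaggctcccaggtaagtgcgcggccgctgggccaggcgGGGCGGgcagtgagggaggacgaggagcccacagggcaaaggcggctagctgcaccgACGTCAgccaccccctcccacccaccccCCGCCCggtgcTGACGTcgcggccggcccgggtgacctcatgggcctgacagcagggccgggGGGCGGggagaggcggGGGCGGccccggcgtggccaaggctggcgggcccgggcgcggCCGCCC
Ahnak: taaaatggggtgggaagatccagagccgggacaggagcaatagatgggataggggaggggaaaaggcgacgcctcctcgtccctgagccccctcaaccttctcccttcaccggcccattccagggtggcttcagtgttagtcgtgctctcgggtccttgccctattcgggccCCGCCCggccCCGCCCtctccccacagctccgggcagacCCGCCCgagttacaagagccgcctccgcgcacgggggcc
Vcl: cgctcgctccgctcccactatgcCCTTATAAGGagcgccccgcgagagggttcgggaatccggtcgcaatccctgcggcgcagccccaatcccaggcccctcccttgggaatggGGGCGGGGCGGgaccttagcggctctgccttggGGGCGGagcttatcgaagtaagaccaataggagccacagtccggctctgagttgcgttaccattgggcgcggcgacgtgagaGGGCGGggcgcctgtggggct
Motifs were searched on both strands in such windows before the start: the CArG box bound by SRF, the GC box GGGCGG bound by SP1-type factors, the cAMP response element TGACGTCA and its shorter form TGACGT, which lies within the full element, the AP-1 site TGANTCA and the TATA box TATAAA. The 10 genes had 11 windows, as Tpm3 has 2 listed starts. The Tpm4 window held 5 GC boxes and 2 short elements, at -154 to -149 and at -115 to -110 from the start, and was 78.8% G and C. It lies inside the GENCODE span of Tpm4, which begins at 72134975. The window is thus upstream of that RefSeq start and not of the whole annotated gene. The Ahnak window held 3 GC boxes and none of the other motifs. The single CArG box of the 11 windows was that of Vcl, at -227 to -218, beside 4 GC boxes, of which an adjoining pair shares 1 base. A GC box was in 9 of the 11 windows, a TATA box in that of Myh9 and an AP-1 site in that of Actn4. Of all 32851 such windows in RefSeq's list 1.47% held a CArG box, 32.7% a GC box, 6.47% the short element, 1.55% the full one, 6.75% an AP-1 site and 12.4% a TATA box. These matches are letters in a window, not measured binding.

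The crosslinker genes Actn1 and Actn4 differed by far in level. Actn4 (ENSMUSG00000054808), known from non-muscle cells, measured 621, 602, 543 and 626 CPM in the scrambled and 593, 570, 651 and 525 CPM in the knockdown libraries. The groups overlapped over most of their range, with a log2 fold change of -0.03 (SE 0.08) that changed sign without knockdown replicate 4 (0.01). Actn1 (ENSMUSG00000015143), which encodes the alpha-actinin of platelets and focal adhesions, measured 0.500, 2.34, 2.13 and 1.62 CPM in the scrambled and 7.45, 9.51, 0.952 and 15.98 CPM in the knockdown libraries. In 3 knockdown libraries Actn1 lay above all scrambled ones, and in replicate 3 it lay within their range. Its log2 fold change of 2.36 (SE 0.78) was not called by edgeR; it was called without knockdown replicate 3 (2.72) and with DESeq2. Per kilobase Actn1 made up 0.309 ± 0.162% of alpha-actinin reads in scrambled and 1.65 ± 1.28% in knockdown libraries (SD, n = 4 per group).

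Myh9 and Tln1 moved by small amounts from high levels and with little spread. Myh9, the heavy chain of non-muscle myosin IIA, measured 579, 571, 536 and 543 CPM in the scrambled and 740, 669, 656 and 757 CPM in the knockdown libraries. All knockdown libraries were above all scrambled ones, with a log2 fold change of 0.34 (SE 0.06), and the call held with each library left out (0.30 to 0.37). Tln1, the integrin activator that links integrin tails to actin, measured 780, 792, 762 and 807 CPM and 968, 868, 879 and 942 CPM. Its groups did not overlap either, at a log2 fold change of 0.22 (SE 0.05). That call was lost when scrambled replicate 1, 2 or 3 or knockdown replicate 1 or 4 was left out (0.20 to 0.25 over all 8 omissions), and with no filter (0.20).

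Vcl, the talin partner that strengthens the link under load, did not follow Tln1. It measured 167, 161, 171 and 124 CPM in the scrambled and 115, 124, 168 and 126 CPM in the knockdown libraries. Scrambled replicate 4 lay with the knockdown libraries and knockdown replicate 3 with the scrambled ones. The log2 fold change of -0.23 (SE 0.14) was not called, and was called lower without knockdown replicate 3 (-0.37).

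Ahnak (ENSMUSG00000069833, chromosome 19, 8989284 to 9076914, plus strand) had the largest fold change of the 10 genes and a wide spread between mice. It had 71, 130, 69 and 74 counts in the scrambled libraries, or 1.97, 4.00, 1.79 and 3.33 CPM. In the knockdown libraries it measured 16.8, 55.0, 30.9 and 6.83 CPM, from 418, 1664, 975 and 314 counts. The groups did not overlap, and within the knockdown group the highest library was 8.04 times the lowest. The log2 fold change was 3.31 (SE 0.64), and 1.70 (SE 0.35) in the authors' deposited table. The call was lost when scrambled replicate 1, 2 or 3 was left out (values of 2.71 to 3.64 over all 8 omissions), and also with limma-voom (2.93) and with no filter (3.29).

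**Figure D2:**
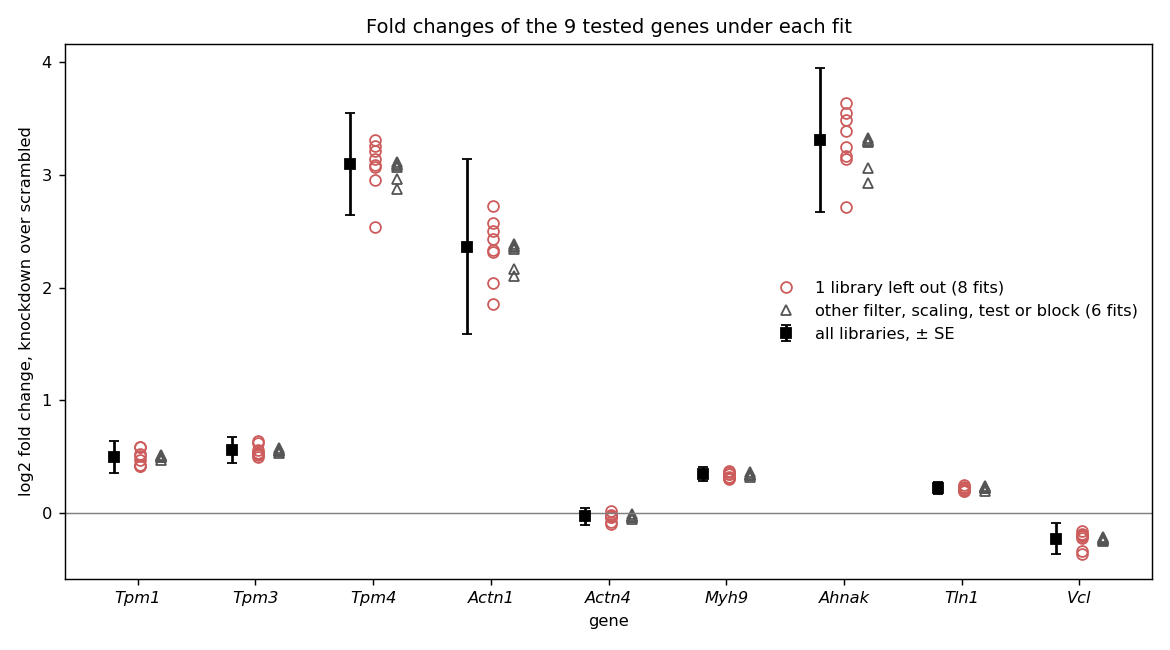
Log2 fold changes (knockdown over scrambled) of the 9 tested genes with all libraries (square, ± SE), with 1 library left out (circles, 8 fits) and under another filter, scaling, test or block (triangles, 6 fits). Tpm4, Actn1 and Ahnak lie far above the other 6 genes, and Actn4 lies close to 0 (-0.03).

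By level per kilobase of exon, the 10 genes fell into an abundant and a scarce set. In the scrambled libraries the order was Actn4 (97.6 CPM per kilobase), Tln1 (80.1), Myh9 (43.1), Tpm1 (29.3), Vcl (19.0), Tpm3 (16.02), Tpm4 (0.484), Actn1 (0.298), Ahnak (0.139) and Tpm2 (0.0173). The ranges of Vcl and Tpm3 overlapped, as did those of Tpm4 and Actn1 and of Actn1 and Ahnak. In the knockdown libraries Tpm4 stood at 4.16 ± 2.74, Actn1 at 1.53 ± 1.12 and Ahnak at 1.37 ± 1.05 CPM per kilobase (SD, n = 4 per group), all still below Vcl at 16.2 ± 2.88. There the ranges of Actn4 and Tln1 overlapped, as did those of Tpm3 and Vcl, of Tpm4 and Actn1, and of Actn1 and Ahnak. The 3 genes with fold changes of over 2 log2 units were thus all from the scarce set.

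The pair with the largest increases did not vary together from mouse to mouse. The deviation of each library from its own group's mean (log2 CPM) leaves out the difference between the groups. In knockdown replicate 4 this deviation was 1.16 for Tpm4 and -1.61 for Ahnak, and in knockdown replicate 2 it was -0.41 and 1.38. Over the 8 libraries the deviations of Tpm4 and Ahnak had a Pearson correlation of -0.75. The largest deviation of each gene was that of knockdown replicate 4. In scrambled replicate 2 both genes were above their mean (0.35 and 0.60), and in the other scrambled libraries they deviated in opposite directions. Tpm4 deviated with Myh9 (0.84) and Actn1 (0.68) and against Tpm1 (-0.86) and Actn4 (-0.74). Tpm3 deviated against Vcl (-0.93), and Tpm1 with Actn4 (0.81). These correlations describe 8 libraries whose values share depth and cell makeup, and no p-value is given for them.

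**Figure D3:**
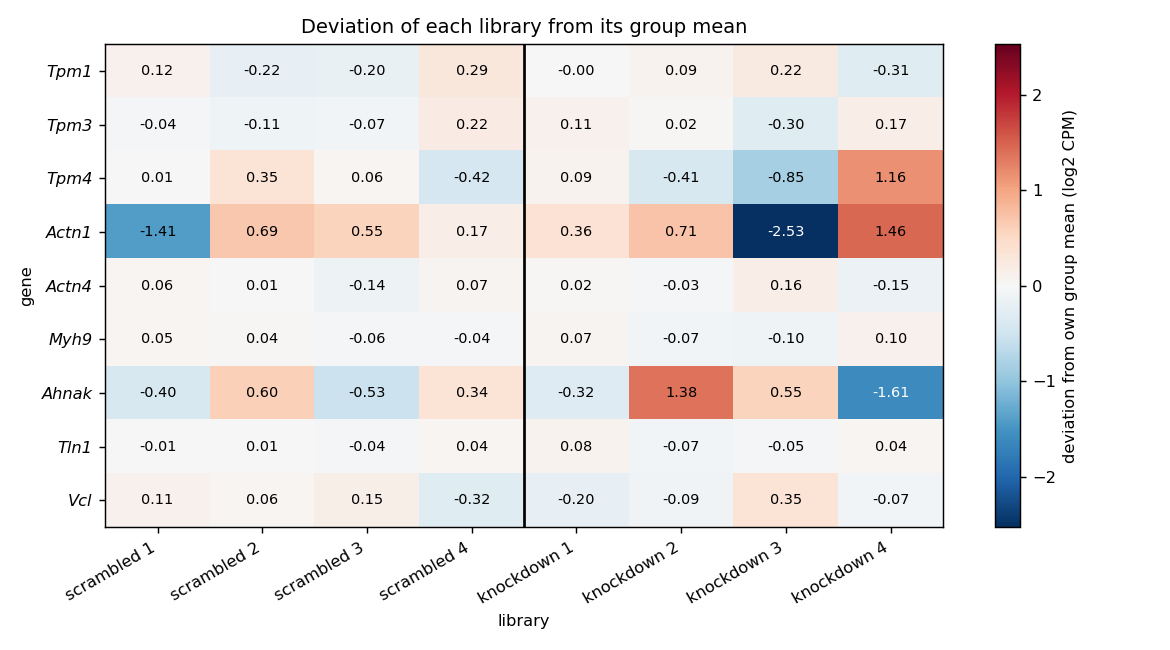
Deviation of each library from its own group mean (log2 CPM, colour and number) for the 9 tested genes; columns are the 8 libraries. Knockdown replicate 4 is high for Tpm4 (1.16) and Actn1 (1.46) and low for Ahnak (-1.61), and knockdown replicate 3 is low for Actn1 (-2.53).

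Genes with the nearest pattern were sought by the same correlation of deviations over genes whose mean reached 5 CPM. For Tpm4 they were Zfp260 (0.99), Msra (0.99) and Camkk2 (0.99), and for Ahnak Sik1 (0.98), Senp3 (0.98) and Smim26 (0.96), of 9281 genes compared over 8 libraries. The measure takes no account of the group difference or of size: Camkk2 ran from 46.2 to 53.4 CPM in the scrambled and from 39.8 to 61.4 CPM in the knockdown libraries. Sik1, a salt-inducible kinase gene, measured 20.9 to 32.5 CPM in scrambled mice and 47.5, 92.2, 59.6 and 33.7 CPM in the knockdown mice. Like Ahnak it was highest in knockdown replicate 2 and lowest of that group in replicate 4.

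The early granulocyte markers moved with some of the 10 genes and not with others. Their summed level ranked the knockdown libraries 4, 1, 2 and 3 from high to low, and Tpm3, Tpm4 and Myh9 had that same order, 3 of the 5 genes called higher. This order is not particular to granulocyte markers. Summed markers of monocytes and macrophages, of T and NK cells and of endothelium had it too, as did the first principal component. Of all 1080 genes called higher 25.1% had it, and of all tested genes 10.5%. Actn1 was low in knockdown replicate 3, where the markers were low. In that library, with 86.7 CPM of these markers against 35.9 to 333 CPM in the scrambled libraries, Tpm4 measured 4.38 CPM and Ahnak 30.9 CPM, both above every scrambled library. Ahnak was lowest of the knockdown group in replicate 4, where the markers were highest. Each of these statements on replicates 3 and 4 rests on 1 library. The part of early granulocytes in the values of the 10 genes was not tested.

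**Figure D4:**
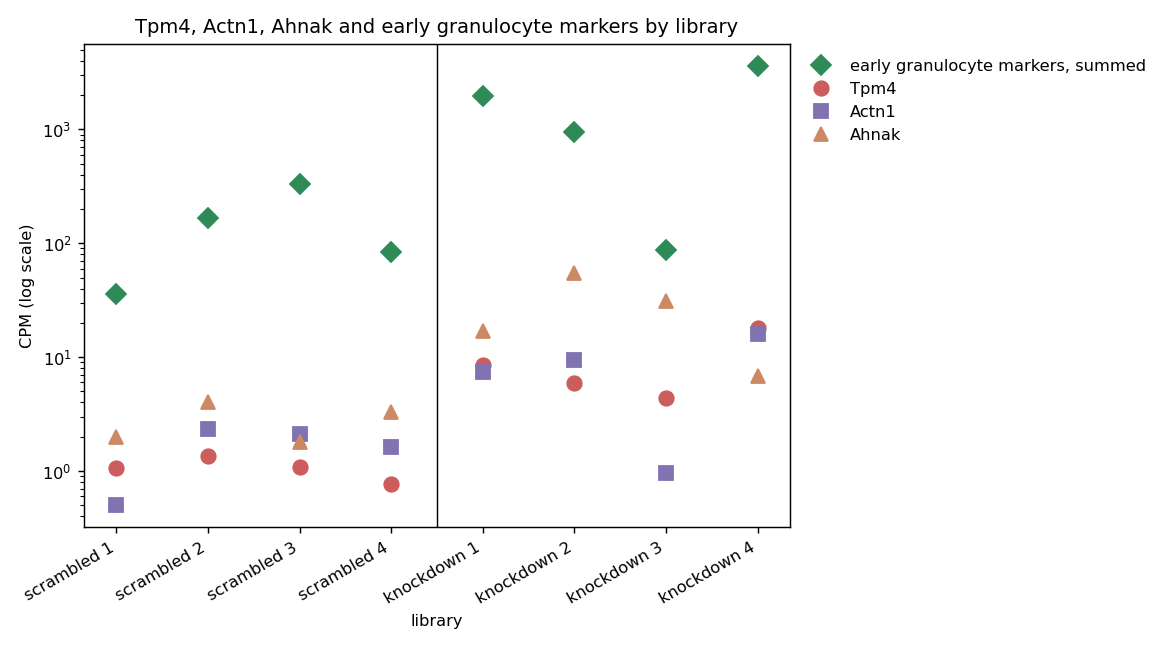
Tpm4, Actn1, Ahnak and the sum of 8 early granulocyte markers (CPM, log axis) in each of the 8 libraries. In knockdown replicate 3 the markers (86.7 CPM) and Actn1 (0.952 CPM) lie within the scrambled range, while Tpm4 and Ahnak lie above it.

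Other markers gave these values. Megakaryocyte and platelet markers summed to 120 to 156 CPM in the scrambled and 182 to 276 CPM in the knockdown libraries, with 2 of 9 tested markers called higher; Ppbp, Gp6, Treml1 and Clec1b were under 1 CPM throughout. The order of their sum in the knockdown libraries was 1, 3, 2 and 4 from high to low. Monocyte and macrophage markers reached 4.55 to 13.5 CPM and 10.2 to 141 CPM, with all 3 C1q genes under 1 CPM. Of 5 tested, edgeR and limma-voom called 0, and 4 were higher at an unadjusted p under 0.05. DESeq2, run without the low count filter, called 5 of the 10 listed higher. Endothelial markers reached 4.68 to 8.73 CPM and 10.9 to 49.2 CPM, with Cdh5, Kdr, Emcn, Flt4 and Stab2 under 1 CPM. Of 4 tested endothelial markers 1 was called higher. T and NK cell markers reached 3.30 to 9.56 CPM and 4.92 to 98.9 CPM, with the 3 Cd3 genes under 1 CPM, and B cell markers at most 4.07 CPM in any library. Of 2 tested T and NK cell markers 2 were higher at an unadjusted p under 0.05. For these, edgeR and limma-voom called 0, and DESeq2 called 2 higher. Late granulocyte markers reached at most 39.3 CPM, and mast cell and basophil markers 253 to 382 CPM and 154 to 279 CPM. DESeq2 called 1 late granulocyte and 1 B cell marker higher, where edgeR and limma-voom called 0. The part of these cells in the values of the 10 genes was not tested.

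A further 100 genes of the actin machinery were listed by role and looked up in the same comparison. The lists were made with earlier results of these data known, so the shares are a description and no independent support. Of 82 that passed the filter, 21 rose and 3 fell at an adjusted p under 0.05 by edgeR's quasi-likelihood test, or 25.6% and 3.66%, beside 8.02% and 7.29% of all tested genes. Their median log2 fold change was 0.28, beside 0.00 over all tested genes. Leaving out 1 library gave 9 to 35 higher and 1 to 4 lower, while the calls over all genes, 2062 with all libraries, ran from 526 to 3425. Without scrambled replicates 1, 2 and 3 in turn 10, 9 and 10 were called higher, and 35 without knockdown replicate 3. Only 1 was called lower without scrambled replicate 1, 2 or 3 or knockdown replicate 1 or 2, and 2 without knockdown replicate 4. With each library left out in turn 8 of the 21 kept their call each time (Arpc1b, Flna, Msn, Pls3, Rock2, Tagln2, Vasp and Wdr1), and 1 of the 3 (Ppp1r12a). In 14 of the 21 (66.7%) knockdown replicate 3 was the lowest knockdown library, beside 53.8% of all genes called higher, and 6 had the order of the early granulocyte markers, 28.6% beside 25.1% of all genes called higher.

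**Figure D5:**
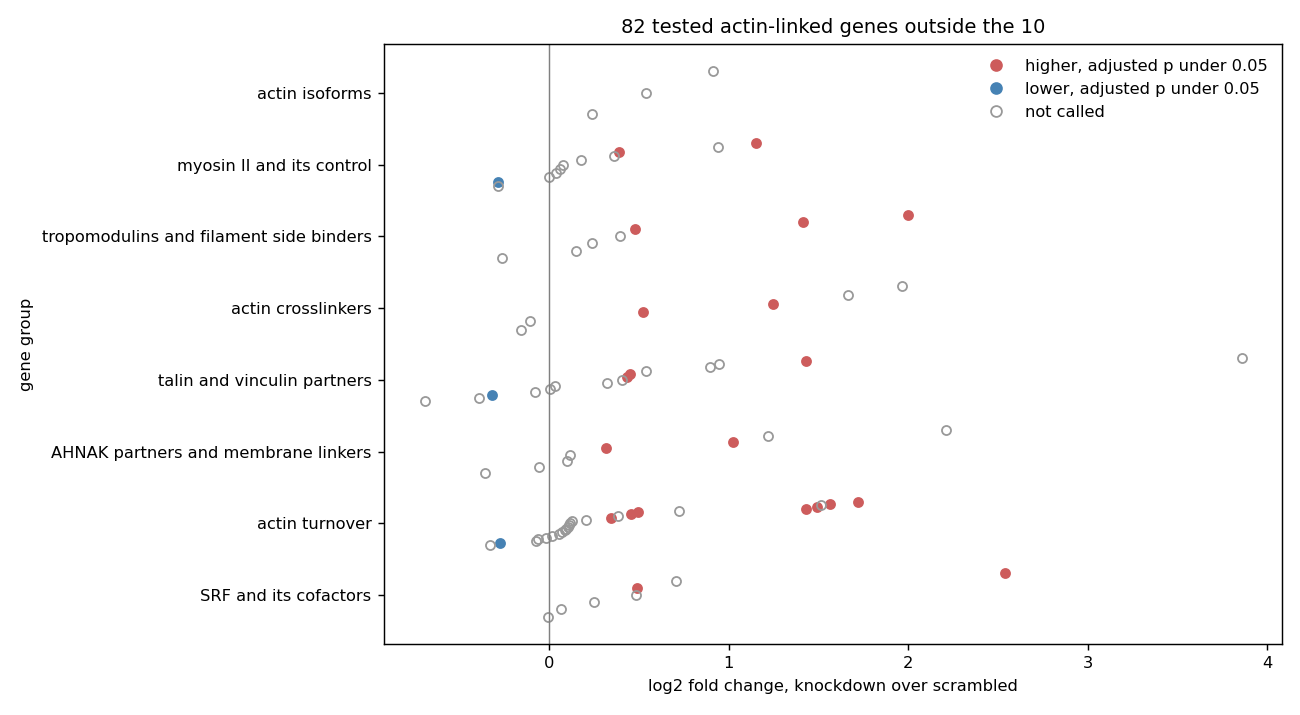
Log2 fold changes (knockdown over scrambled) of 82 tested actin-linked genes, grouped by role, each point 1 gene; filled points passed an adjusted p of 0.05. The 21 filled points to the right of 0 are spread over 7 of the 8 groups, and 3 lie to the left.

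The counts by role from here on stand beside 8.02% of all tested genes called higher and 7.29% called lower. The lists are short, and no count by role is read against these shares. Actin genes themselves were not called. Actb, the cytoplasmic beta-actin, measured 1439 ± 176 and 1698 ± 175 CPM (adjusted p = 0.138), and Actg1 11.3 ± 2.67 and 16.4 ± 5.09 CPM (adjusted p = 0.167; SD, n = 4 per group). Of 3 tested actin genes edgeR, DESeq2 and limma-voom called 0, with 1 at an unadjusted p under 0.05. Of 11 tested genes of myosin II and its control, 2 rose and 1 fell. Rock2, a kinase that activates myosin II, rose (adjusted p = 0.0115; log2 fold change 0.39, SE 0.07; 96.8 ± 5.51 against 127 ± 8.63 CPM), and Limk1, which phosphorylates cofilin, rose too (8.35 ± 0.685 against 18.5 ± 6.26 CPM, adjusted p = 0.0165). Ppp1r12a, the targeting subunit of myosin phosphatase, fell, with means of 96.6 ± 1.28 and 79.2 ± 1.90 CPM (adjusted p = 0.00987; log2 fold change -0.29, SE 0.05). Limk1 lost its call without scrambled replicates 1, 2 or 3 (adjusted p of up to 0.0598). Myh10, the heavy chain of non-muscle myosin IIB and the nearest relative of Myh9, measured 666 ± 121 and 546 ± 74.4 CPM and was not called (adjusted p = 0.209; called lower without scrambled replicate 4, log2 fold change -0.43, adjusted p = 0.0319). Myh14 was near 0, at 0.0264 and 0.0134 CPM.

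Genes whose products cap or coat filaments beside tropomyosin rose in 3 of 7 cases. Tmod1, the cap of the slow filament end on tropomyosin-coated filaments, rose (adjusted p = 0.0246; log2 fold change 1.41, SE 0.31), with means of 11.7 ± 4.81 and 31.1 ± 9.62 CPM. Cnn2, a calponin, rose (5.81 ± 1.27 against 23.3 ± 13.02 CPM, adjusted p = 0.0153) and so did Tagln2, a related actin binder (392 ± 37.5 against 545 ± 42.6 CPM, adjusted p = 0.0113; SD, n = 4 per group). Tmod1 lost the call without scrambled replicates 1, 2 or 3 (adjusted p of up to 0.0709), and Cnn2 without scrambled replicate 2 (adjusted p = 0.0534). Among the crosslinkers 2 of 6 rose, the filamin gene Flna (423 ± 36.3 against 608 ± 63.1 CPM, adjusted p = 0.0111) and the plastin gene Pls3 (2.60 ± 0.415 against 6.16 ± 0.966 CPM, adjusted p = 0.00701). Of the other alpha-actinin genes, Actn3 measured 5.46 ± 1.54 and 4.89 ± 0.588 CPM (adjusted p = 0.660), with a sign that changed without scrambled replicate 4 (log2 fold change 0.03), and Actn2 was near 0, at 0.00769 and 0.0691 CPM.

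Of 15 tested partners of talin and vinculin 3 rose and 1 fell. Zyx, a LIM protein of focal adhesions, rose (adjusted p = 0.0189; log2 fold change 1.43, SE 0.29), with means of 13.8 ± 2.73 and 37.3 ± 12.8 CPM. Vasp, which promotes filament growth, also rose (85.5 ± 6.02 against 115 ± 9.24 CPM, adjusted p = 0.0120), as did Parvb (99.3 ± 12.2 against 135 ± 22.6 CPM, adjusted p = 0.0499; SD, n = 4 per group). Zyx lost its call when scrambled replicate 1 or 3 or knockdown replicate 1 or 2 was left out (adjusted p of up to 0.0586), and Parvb without any library except knockdown replicate 4 (adjusted p of up to 0.111). The gene that fell was Lims1, a partner of integrin-linked kinase (129 ± 8.11 against 103 ± 12.4 CPM, adjusted p = 0.0443). It was named after its value was seen. Tln2, the second talin gene, measured 1.72 ± 0.572 and 2.15 ± 0.821 CPM (adjusted p = 0.545).

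Among the AHNAK partners and membrane linkers 2 of 8 rose. S100a10, whose product binds AHNAK together with annexin A2, rose (adjusted p = 0.0193; log2 fold change 1.02, SE 0.21), with means of 15.6 ± 2.67 and 31.7 ± 8.38 CPM. That call ended when scrambled replicate 1 or 2 or knockdown replicate 1 or 2 was left out (adjusted p of up to 0.0654). Anxa2 itself measured 17.9 ± 3.52 and 41.6 ± 29.9 CPM and was not called (adjusted p = 0.123; 0.0193 without knockdown replicate 3). Msn, the moesin gene, rose (adjusted p = 0.0118; log2 fold change 0.31, SE 0.06), with means of 413 ± 25.7 and 513 ± 13.2 CPM. Ahnak2, the relative of Ahnak, was scarce at 0.605 ± 0.386 and 0.478 ± 0.384 CPM (SD, n = 4 per group; adjusted p = 0.773).

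Of 25 genes of actin turnover 7 rose and 1 fell. The gene that fell was Arpc3, an Arp2/3 subunit (315 ± 31.0 to 261 ± 14.4 CPM, adjusted p = 0.0468), named after its value was seen. Of the 7 that rose, the smallest p-values were those of Wdr1, a cofactor of cofilin (161 ± 12.2 to 227 ± 17.5 CPM; adjusted p = 0.00708; log2 fold change 0.49, SE 0.08), and Arpc1b, an Arp2/3 subunit (48.2 ± 4.95 to 135 ± 47.1 CPM; adjusted p = 0.0112; log2 fold change 1.49, SE 0.24). The formin gene Diaph1 rose (181 ± 6.38 against 230 ± 20.7 CPM, adjusted p = 0.0175) and so did the thymosin gene Tmsb10 (3.76 ± 0.787 against 10.1 ± 3.65 CPM, adjusted p = 0.0178; SD, n = 4 per group). Diaph1 and Tmsb10 both lost the call without scrambled replicates 1, 2 or 3 (adjusted p of up to 0.0739 and 0.0643). Of the SRF group 2 of 7 rose, Srf and the ternary complex factor gene Elk3 (adjusted p = 0.0398, groups overlapping, named after its value was seen). Srf, the transcription factor that controls many actin genes, rose (adjusted p = 0.0450; log2 fold change 0.49, SE 0.14), with means of 91.7 ± 7.60 and 129 ± 25.9 CPM, a call lost without any library except knockdown replicates 1 and 4 (adjusted p of up to 0.115). The genes of its actin-sensing cofactors, Mkl1 (also Mrtfa; 12.5 ± 1.49 and 20.3 ± 7.36 CPM, adjusted p = 0.0724) and Mkl2 (also Mrtfb; 13.2 ± 1.36 and 15.7 ± 3.56 CPM, adjusted p = 0.323), were not called. Mkl1 was called higher without knockdown replicate 3 (adjusted p = 0.0149) and with DESeq2 (adjusted p = 0.0185).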

How the data were processed

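RNA of 8 sorted samples was sequenced by the submitters from 500 ng of total RNA with a stranded kit and ribosomal RNA depletion, per the labels' protocols. Raw read counts per gene, in whole numbers, were deposited by the authors. It also holds signal (baseMean, the authors' mean normalized count), the authors' log2 fold changes with standard errors, their test score (the Wald statistic) and their p-values and adjusted p-values, from DESeq2 1.18.1 per the submitters' processing notes, which also name CASAVA 1.8. The sources used here do not give the aligner, counter, strand setting, annotation or build, so reads of copies, overlapping and antisense genes may have been split or mixed. A column was given the sample whose description ends in the column's number, leaving 0 unmatched, and titles gave group and replicate. Within each group no library was a copy of another (chi-square per degree of freedom of 11.7 to 104). Pairs across the groups were not compared by this measure.

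The main test was that of edgeR 4.0.16 under R 4.3.3 (filterByExpr, TMM scaling, robust quasi-likelihood F test on the group, two-sided, Benjamini-Hochberg over 13462 genes, threshold 0.05). Standard errors are the fold change divided by the root of F. The test was also run on counts simulated from the fitted means and spread, with 200 genes changed by known folds. Those counts varied independently between genes, unlike those of mice that differ in cell makeup, and nothing is read from that run. Alternatives were other scaling, no filter or 1 CPM in 4 libraries, DESeq2 1.42.0, limma-voom 3.58.1, the replicate number as a block, and each library left out. Log2 CPM used a prior count of 2. Of the gene IDs 47224 were in GENCODE M21, which gave positions and exon lengths. Promoter windows come from RefSeq; all 10 genes matched.

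The 10 genes and all gene lists were chosen with earlier results of these data known. Genes outside the 10 were named by rule: in each of 8 actin-linked lists up to 4 that passed without overlap of the groups, by smallest p, and 13 relatives and partners of the 10 whatever they did, giving 29.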

Additional observations from a re-analysis of the deposited data

Results flagged for a closer look

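In 6 of 75 groups of 4 libraries checked over 40 genes, 1 library stood apart from the other 3, by a gap to the nearest that exceeded Dixon's 95% critical share of the group's range; chance alone gives about 1 in 20 groups. None was one of the 10 genes. Scrambled replicate 4 was low for Myh10, at 486 CPM against 703 to 746, and high for Fubp1, at 396 CPM against 284 to 296. Scrambled replicate 2 was low for Ppp1r12a, at 94.6 CPM against 97.1 to 97.3, and scrambled replicate 3 low for Srf, at 80.4 CPM against 93.9 to 96.4. Knockdown replicate 3 was high for Tmod1, at 45.4 CPM against 24.4 to 27.5, and knockdown replicate 4 high for Mkl2, at 20.98 CPM against 13.3 to 14.3.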

How the results depend on the processing

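Over 37 single genes and their 517 alternative values, 427 kept direction and side of the threshold, 72 lost the call, 14 gained one and 4 changed sign. With 1 library left out the log2 fold change of Actn4 ran from -0.096 to 0.013, that of Actn3 from -0.26 to 0.031 and that of Ahnak2 from -0.95 to 0.080. Sign changes came without knockdown replicate 4 (Actn4, Ahnak2 at 0.050) and scrambled replicate 4 (Actn3, Ahnak2), none of these values called. The 2062 genes called over all genes became 3588 with DESeq2 and 526 to 3425 with 1 library left out. The 5 of the 10 genes called higher became 3 without a low count filter and 2 to 6 with 1 library left out, and the 0 called lower became 0 to 1. The 21 other actin-linked genes called higher became 9 to 35 with 1 library left out, and the 3 called lower became 1 with limma-voom and 1 to 4 with 1 library left out. The cause of these shifts was not tested.

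Samples of the 2 groups share only a replicate number: the deviations of same-numbered libraries had correlations of -0.42, 0.02, -0.56 and -0.22, and none correlated best with its own number. With the replicate number as a block 400 genes were called. Of the 10 genes 2 were called higher, Tpm3 and Tpm4, and Myh9, Ahnak and Tln1 were not. There were 3 higher and 0 lower of the other actin-linked genes by edgeR. Depth limits Tpm2, with at most 28 counts, and the levels of Tpm4, Actn1 and Ahnak in the scrambled libraries, with at most 130 counts.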
